A study of Mus musculus with 6 samples.

Results

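Collagen and laminin genes were followed in the developing mouse retina from mid-gestation to 3 weeks after birth. The members were the GENCODE M21 protein-coding genes named as a numbered collagen alpha chain or as a laminin alpha, beta or gamma chain, 44 collagen and 11 laminin genes, 55 in all. Of these, 39 genes (32 collagens and 7 laminins) had at least 1 poly(A) site in the data, with 60 of the 32688 sites of the whole series, in which 14403 genes had a site. The other 16 had none: Col4a3, Col4a5, Col6a5, Col6a6, Col10a1, Col12a1, Col13a1, Col14a1, Col19a1, Col24a1, Col25a1, Col28a1, Lama2, Lama3, Lamb3 and Lamc3. All 39 genes with a site passed the filter on low counts, which needed a CPM (tags scaled to the size of the library, with TMM) of 1 or more in at least 2 libraries. Poly(A) site sequencing (PA-seq) counts the 3′ ends of polyadenylated RNA, so the values do not scale with transcript length. Levels are set side by side between genes, with the limits that PCR reads are not independent molecules and that only listed sites are counted. The retinas came from C57BL/6J mice at embryonic days 13.5, 15.5 and 18.5 (E13.5, E15.5, E18.5) and at postnatal days 0, 6 and 21 (P0, P6, P21), with 1 sample per stage and no genotype or treatment other than age. The number of animals per sample was not given in the sources used here. There were no replicates, and what could be tested was a trend with stage order across the 6 libraries. The labels name retina as the tissue and no sort into cell types, so fewer cells of a type and less RNA per cell cannot be told apart.

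Collagens are triple helices of alpha chains. Collagen IV forms the network of basement membranes together with laminins, which are heterotrimers of an alpha, a beta and a gamma chain, and with perlecan and nidogens. In the eye such sheets line the inner surface of the retina (the inner limiting membrane), surround its vessels, enclose the lens and underlie the pigment epithelium. The fibrils of the vitreous gel are made of collagens II, V/XI and IX, while collagens I and III build the sclera and other connective tissue.

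The libraries held 3286158 to 4656153 tags, of which 95.5% to 97.5% lay in nuclear genes or just downstream of them. A count of 3 tags corresponded to 0.654 to 0.944 CPM. Retinal genes were present in every library, with Rax, a factor of the eye field, between 186 and 367 CPM and Crx, a factor of photoreceptors, between 143 and 828 CPM. The 21 lens markers, mostly crystallins, summed to 1356, 4114, 594, 5958, 311 and 1162 CPM from E13.5 to P21, highest at E15.5 and P0. Their part in the results was not tested, and the counts of calls are also given without both libraries. Each stage had 2 count columns of unstated meaning, which were added. Over the 83 member values with at least 100 tags, the columns differed by a median of 0.11 on the log2 scale and by at most 0.48. Values with fewer tags were not included, and some were uneven. At E15.5 the columns held 11 and 1 tags of Col5a3 and 16 and 3 of Col7a1. At P0 they held 10 and 2 tags of Col5a3 and 5 and 0 of Col27a1.

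The 39 genes did not move as one group. With stage order, 8 rose (20.5%), against 17.0% of the 14398 genes tested, and 7 fell (17.9%), against 13.1% of all genes. Both shares lay near the background, and the median fitted log2 change was 0.05 for the members and -0.02 for all genes. The 32 collagens gave 7 rising, 7 falling and 18 genes that did not pass. No laminin passed as falling by edgeR in the main setting, while 2 fell at an unadjusted p under 0.05. The test of DESeq2 called Lamb2 as falling (adjusted p = 0.0406), and some alternative edgeR settings called Lamb2 or Lama1, as given below. Together the members held 1964, 1757, 1783, 1892, 1342 and 1408 CPM from E13.5 to P21, with the lowest sums at P6 and P21. Without both E15.5 and P0, 4 members rose and 5 fell. Without E13.5, 2 rose and 2 fell, and without P21, 2 rose and 6 fell.

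**Figure D1:**
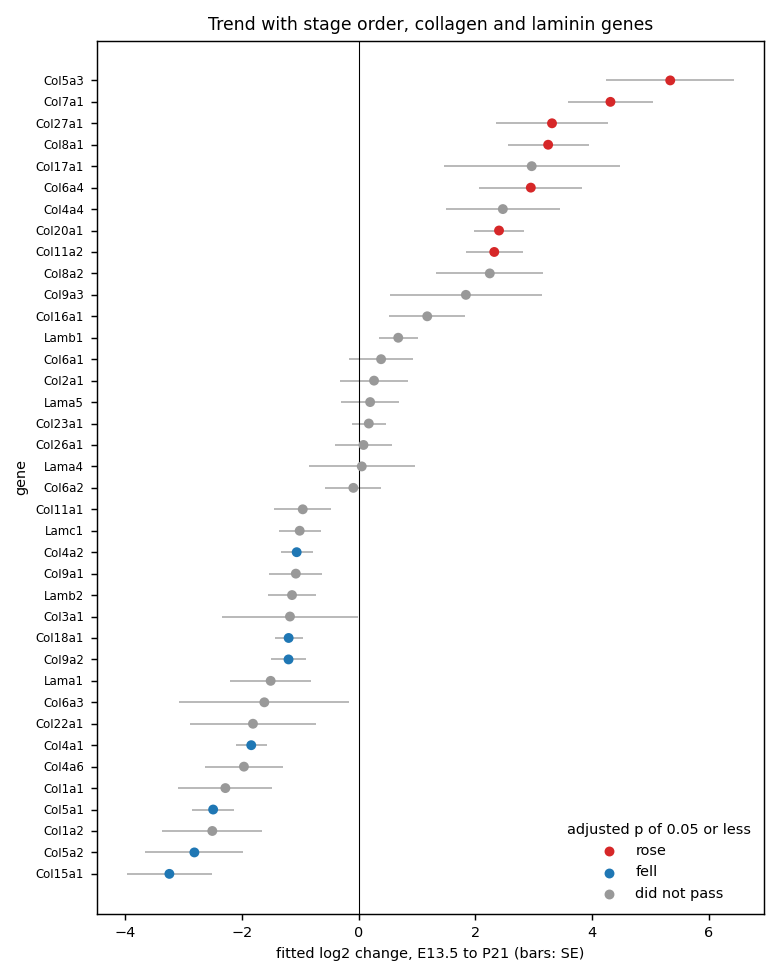
Fitted log2 change from E13.5 to P21 on the horizontal axis for 38 of the 39 genes on the vertical axis, with standard errors as bars. Red marks 7 genes that rose, blue the 7 that fell and grey the 24 that did not pass an adjusted p of 0.05. Col5a3 lies at the upper end (5.34) and Col15a1 at the lower end (-3.24).

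Col4a1, Col4a2, Col15a1 and Col18a1, genes of basement membrane collagens, were each highest at E13.5 and fell with stage. Col4a1 and Col4a2 encode the chains that assemble into the common collagen IV trimer. Col4a1 stood at 163, 125, 78.1, 56.0, 66.3 and 42.5 CPM from E13.5 to P21, a 3.83-fold range between the first and the last stage. Its fitted log2 change was -1.84 ± 0.27 (SE, 6 libraries; adjusted p = 0.00473), and the call was kept under each alternative run, including each library left out in turn. Col4a2 stood at 170.02, 143, 92.0, 75.6, 83.3 and 86.9 CPM (-1.06 ± 0.28, adjusted p = 0.0267). Most of its fall came before birth, and its values from P0 on lay between 75.6 and 86.9 CPM. Its call was lost without E13.5 (adjusted p = 0.170), without E15.5 (0.0781), without P6 (0.0646), without both E15.5 and P0 (0.0751) and on the scale of days after conception (0.189). Of the tags of both chains, Col4a1 took 48.9%, 46.7%, 45.9%, 42.6%, 44.3% and 32.8% in stage order. The Wilson intervals at E13.5 (46.1% to 51.7%) and P21 (28.8% to 37.2%) did not overlap, and they cover counting error only, since PCR reads are not independent molecules.

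Col4a1 and Col4a2 are neighbours that start head to head on chromosome 8, and their promoters are shown because one stretch of DNA serves both. In GENCODE M21 (GRCm38) the genes overlap by 22 bases at their starts. The RefSeq windows on GRCm38.p6, from 250 bases before to 50 after each start, are chr8:11312777-11313076 on the minus strand for Col4a1 and chr8:11312555-11312854 on the plus strand for Col4a2, and share 78 bases. Capitals mark the CCAAT box (CCAAT) and the GC box (GGGCGG) on either strand.
Col4a1 promoter: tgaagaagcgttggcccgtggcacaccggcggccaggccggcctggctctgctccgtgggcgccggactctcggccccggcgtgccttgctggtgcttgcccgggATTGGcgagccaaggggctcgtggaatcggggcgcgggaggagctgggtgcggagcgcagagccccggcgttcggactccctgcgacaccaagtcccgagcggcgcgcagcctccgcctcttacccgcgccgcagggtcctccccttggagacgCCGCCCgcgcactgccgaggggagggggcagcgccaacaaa
Col4a2 promoter: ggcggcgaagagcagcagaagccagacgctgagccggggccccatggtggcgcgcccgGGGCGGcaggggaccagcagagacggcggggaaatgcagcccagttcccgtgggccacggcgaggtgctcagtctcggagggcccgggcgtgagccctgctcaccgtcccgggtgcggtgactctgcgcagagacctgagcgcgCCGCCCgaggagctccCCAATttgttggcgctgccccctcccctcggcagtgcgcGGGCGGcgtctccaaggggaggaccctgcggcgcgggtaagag
The Col4a1 window held 1 CCAAT and 1 GGGCGG match, the Col4a2 window 1 and 3, and neither held TATAAA. Of all 32851 RefSeq windows of this length, 37.4% held CCAAT, 35.7% GGGCGG and 13.6% TATAAA. Windows were found for 40 of the 55 members, 44 windows in all, of which 31.8%, 59.1% and 11.4% held these motifs. These are letter matches and were not tested as binding sites.

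Collagens XV and XVIII of the basement membrane zone end in an endostatin domain. Col18a1, of vessel, lens and inner limiting membrane basement membranes, stood at 238, 175, 129.8, 128, 90.2 and 110.2 CPM (-1.20 ± 0.24, adjusted p = 0.0116). Values were highest at E13.5 and lowest at P6. The call was lost without E13.5 (adjusted p = 0.0964), without both E15.5 and P0 (0.0508) and on a scale of days after conception (0.109). Col15a1, its relative, was scarcer, with 13.7, 6.33, 3.93, 1.26, 2.96 and 1.10 CPM (50, 24, 18, 4, 12 and 4 tags; -3.24 ± 0.72, adjusted p = 0.0163), and its call was lost without E13.5 (0.126), without P21 (0.0746), on the scale of days (0.0551) and in the first columns (0.0686). The other collagen IV chains with a site did not pass. Col4a6, on the X chromosome, was level at 33.6 to 43.3 CPM in the 4 libraries up to P0 and stood at 8.38 CPM at P6 and 13.4 at P21 (-1.96 ± 0.66, adjusted p = 0.0589). Col4a4, a chain of the collagen IV of mature filtration and cochlear membranes, had 3 to 11 tags up to P6 and 35 tags (9.59 CPM) at P21 (2.47 ± 0.98, adjusted p = 0.0925).

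Vessels also make these basement membranes. The 16 measured of 20 endothelial and pericyte markers summed to 381, 458, 470.2, 439.8, 529 and 638 CPM (Flt1, Rgs5 and Tek rose, Notch3 fell), and to 248, 259.9, 213, 209, 326 and 461 CPM without Kdr, the most abundant of them. From E13.5 to P0, Kdr went from 134 to 231 CPM, while Cdh5 went from 11.8 to 1.26, Emcn from 13.7 to 0.630, Pecam1 from 17.5 to 4.72 and Tie1 from 17.8 to 5.04 CPM. Over the same span, Cldn5 went from 43.8 to 104 CPM, Rgs5 from 6.84 to 16.1 and Pdgfrb from 13.7 to 20.8 CPM. Notch3 went from 83.5 to 34.3 CPM, and of the remaining markers only Tek was higher at P0 than at E13.5. Kdr, Cdh5, Emcn, Pecam1, Tie1, Cldn5 and Pdgfrb did not pass the trend test and were named after their values were seen. The part of vessel cells in the values of Col4a1, Col4a2, Col15a1 and Col18a1 was not tested.

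Laminin chains differed from one another in when they were lower. Lamb2, the beta chain of the inner limiting membrane and of synaptic laminins, stood at 107, 104, 102, 102, 40.9 and 58.1 CPM. The 4 libraries up to P0 lay within 5 CPM of each other, and both later ones were lower. The linear trend did not pass (-1.14 ± 0.41, adjusted p = 0.0688), but did without P0 (0.0386). Lamb1, the other beta chain, stood at 29.3, 25.1, 27.9, 24.6, 38.0 and 44.95 CPM, with its highest values at P6 and P21 (0.68 ± 0.33, adjusted p = 0.155). Of the tags of both beta chains, Lamb1 took 19.4% to 21.6% up to P0, 48.1% at P6 and 43.6% at P21. The Wilson intervals of the 4 earlier libraries reached at most 25.4%, and those of P6 and P21 began at 42.7% and 38.7%.

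Lama1, the alpha chain of early basement membranes and the inner limiting membrane, had 58.0, 86.3, 84.8, 86.6, 35.0 and 22.5 CPM. Here the 3 libraries from E15.5 to P0 were highest and P21 was lowest, though the columns of P21 read 32.7 and 12.1 CPM. Its linear trend with stage order did not pass (-1.51 ± 0.69, adjusted p = 0.136), but passed on the scale of days after conception (-1.99, adjusted p = 0.0246). A joint test of a linear and a quadratic term of stage order, which allows a bend, passed too (adjusted p = 0.00832). Lamc1, the gamma chain shared by most laminins, had 38.9 and 30.1 CPM at E13.5 and E15.5 and 18.8 to 19.97 CPM from E18.5 on (-1.01 ± 0.36, adjusted p = 0.0689). Lama5 and Lama4, alpha chains of mature and of vascular basement membranes, ran from 8.07 to 16.7 and from 2.20 to 12.8 CPM and did not pass.

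**Figure D2:**
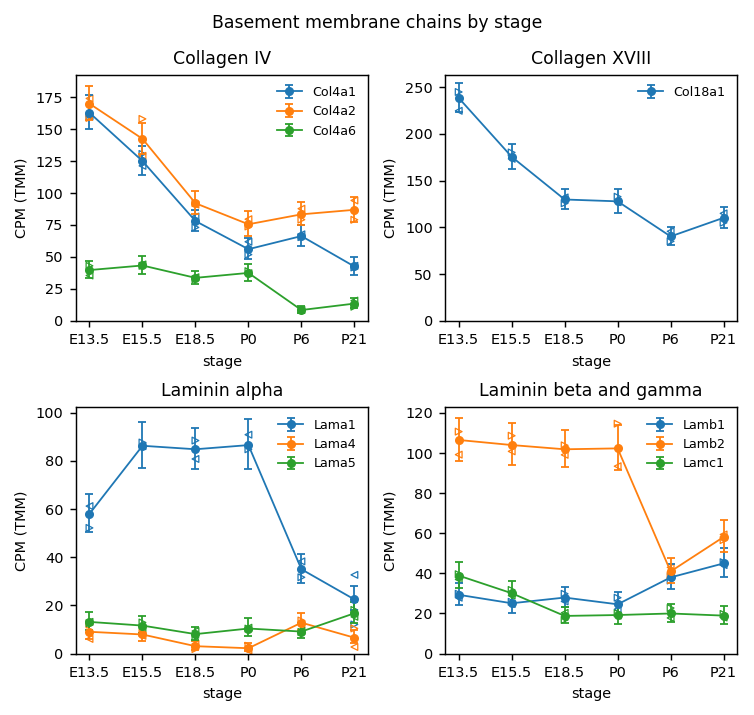
CPM (vertical axes, from 0) at each stage (horizontal axes) for collagen IV, collagen XVIII and laminin chains, with exact 95% Poisson intervals as bars and open triangles for the separate columns of each stage. Col4a1, Col4a2 and Col18a1 are highest at E13.5, while Lamb2 is level at 102 to 107 CPM up to P0 and lower at P6 and P21.

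Among the vitreous type collagens, Col9a1 and Col2a1 had the highest mean CPM of all members. Col2a1, whose product forms the core of vitreous and cartilage fibrils, stood at 211, 159.9, 271, 378, 315 and 148 CPM, highest at P0 and lowest at P21 (0.26 ± 0.59, adjusted p = 0.761). Collagen IX, which decorates these fibrils, is a trimer of the products of Col9a1, Col9a2 and Col9a3. Col9a1 stood at 309.6, 261, 342, 312, 123 and 167 CPM, with both libraries after P0 below the earlier ones (-1.07 ± 0.45, adjusted p = 0.108). Col9a2 stood at 127, 108, 92.3, 110.5, 56.2 and 55.1 CPM and fell (-1.20 ± 0.30, adjusted p = 0.0240), a call lost without E13.5 (0.0950), E15.5 (0.0696), P6 (0.0636) or P21 (0.159). Both genes had their lowest values at P6 and P21.

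Col9a3 went a different way from its partners. It stood at 7.67, 26.1, 86.6, 80.9, 65.8 and 37.3 CPM, an 11.3-fold range between E13.5 and E18.5 with its peak around birth. The linear trend did not pass (1.84 ± 1.30, adjusted p = 0.311), but the joint linear and quadratic test did (adjusted p = 0.00438). At E13.5 the columns held 12.7 and 1.72 CPM, so the lowest value was uneven between them, but both lay under the 26.1 CPM of E15.5. Of the tags of the 3 collagen IX genes, Col9a3 took 1.73%, 6.62%, 16.6%, 16.1%, 26.9% and 14.4% in stage order. Wilson intervals at E13.5 (1.20% to 2.48%) and E15.5 (5.47% to 7.997%) lay below those of the later stages, of which the lowest bound was 12.3%. These intervals cover counting error only and not the uneven columns at E13.5, with 25 and 3 Col9a3 tags.

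The fibril-nucleating collagens V and XI include genes of opposite trends. Col5a1 stepped down at each stage, with 71.7, 43.5, 25.5, 16.7, 14.5 and 13.7 CPM (-2.49 ± 0.36, adjusted p = 0.00468), and its call was kept without each single library and lost on a scale of days after conception (0.0563). Col5a2 held 20.3, 25.9, 12.9, 18.3, 6.16 and 2.19 CPM, the last from 8 tags, and fell (-2.81 ± 0.84, adjusted p = 0.0408). Its call was lost without E13.5 (0.0557), E15.5 (0.120), E18.5 (0.0638), P6 (0.105) or P21 (0.213), and in the second columns (0.0942). Col5a3, the third collagen V chain, was near the floor at E13.5 with 0.821 CPM (3 tags, 95% Poisson interval 0.169 to 2.40) and stood at 3.17, 1.74, 3.78, 35.0 and 23.8 CPM thereafter (5.34 ± 1.09, adjusted p = 0.0125). Both libraries after P0 lay above the other 4, with 142 and 87 tags against at most 12, and the call was lost without E13.5 (0.0594) and on the scale of days (0.0735). Col11a2 rose from 3.29 through 6.60, 9.16, 8.18 and 14.1 to 21.4 CPM (2.32 ± 0.49, adjusted p = 0.0134), a call lost without E13.5 (0.0689) or P21 (0.0921). Col11a1 ran from 7.24 to 18.1 CPM, highest at E13.5, and did not pass (-0.96 ± 0.49, adjusted p = 0.174).

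Connective tissue collagens were scarce. Col1a2, a chain of collagen I, stood at 47.6 CPM at E13.5, 17.7 at E15.5 and 3.45 to 10.4 CPM from E18.5 on. Its linear trend missed the threshold (-2.51 ± 0.86, adjusted p = 0.0613), while the joint linear and quadratic test passed (adjusted p = 0.00621). Its partner Col1a1 held 1.48 to 10.8 CPM (adjusted p = 0.0669) and Col3a1 0.315 to 9.03 CPM (adjusted p = 0.468). Of the 18 markers of mesenchyme and sclera, 7 passed the filter and 11, among them Dcn, Lum, Twist1, Prrx1 and Postn, had no site. The measured 7 summed to 162, 133, 105, 100.1, 117 and 140.1 CPM, 1 rose (Fmod) and 1 fell. Fn1, fibronectin, was the one that fell, from 102 to 35.6 CPM (-1.37 ± 0.21, adjusted p = 0.00562). Their part in the values of collagens I, III and V was not tested. Col1a2, Col9a3 and Lama1 were the 3 members past the joint test and not the linear one. Col6a4 passed the linear test and not the joint one (adjusted p = 0.0830). The joint test called 17 members in all, against 31.0% of all genes.

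**Figure D3:**
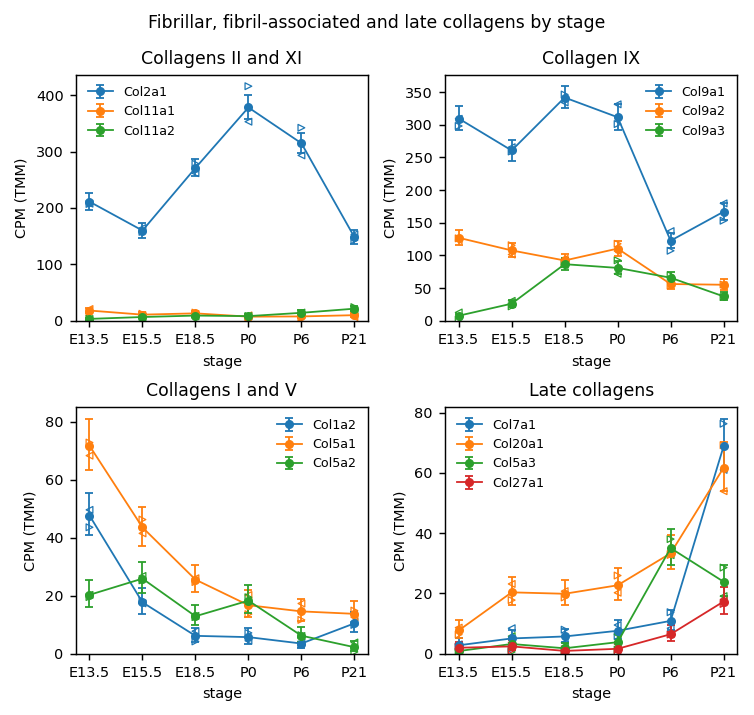
CPM (vertical axes, from 0) at each stage (horizontal axes) for fibrillar and fibril-associated collagens, with exact 95% Poisson intervals as bars and open triangles for the separate columns of each stage. Col9a3 is lowest at E13.5 (7.67 CPM) and highest at E18.5 (86.6), Col5a1 is lower at each stage, and Col7a1 rises to 68.8 CPM at P21.

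Several of the rising genes were highest in the P21 retina. Col7a1, the anchoring fibril collagen that ties epithelial basement membranes to the matrix below, stood at 2.74, 5.01, 5.67, 7.56, 10.8 and 68.8 CPM (10, 19, 26, 24, 44 and 251 tags). It was higher at each stage than at the one before, with a 25.1-fold range (4.31 ± 0.73, adjusted p = 0.00702), and the call was lost without P21 (2.27, adjusted p = 0.0798). Col20a1, a fibril-associated collagen, stood at 7.67, 20.3, 19.8, 22.7, 33.3 and 61.7 CPM (2.40 ± 0.43, adjusted p = 0.00851), likewise lost without P21 (0.0847). These values add the tags of an intronic site (418 tags over the 6 libraries) and of the gene end (210 tags). In each library up to P6 the intronic site held most of the Col20a1 tags. Col27a1, a fibrillar collagen of cartilage, held 0.872 to 2.38 CPM up to P0, 6.41 at P6 and 17.3 at P21 (3.31 ± 0.95, adjusted p = 0.0363). That call was lost without E13.5 (0.0619), E15.5 (0.0726), P6 (0.0644) or P21 (0.311), without both E15.5 and P0 (0.0781) and in the second columns (0.0868).

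Scarcer genes rose as well. Col8a1, a chain of the short-chain network collagen of endothelial basement membranes such as that of the cornea, went from 0.548 (2 tags) through 1.06, 1.53, 1.89 and 2.22 to 7.13 CPM (26 tags; 3.25 ± 0.69, adjusted p = 0.0143), a call lost without E13.5 (0.0599), without P21 (0.183) and without both E15.5 and P0 (0.0561). Its partner Col8a2 held 1.53 to 4.22 CPM up to P6 and 13.4 CPM at P21 (2.25 ± 0.92, adjusted p = 0.0998). Col6a4, a collagen VI chain, went from 0.274 (1 tag) through 0.792, 1.96, 0.944 and 3.45 to 3.56 CPM (2.95 ± 0.88, adjusted p = 0.0416). The call was lost without E13.5 (0.157), E15.5 (0.103), P6 (0.0944) or P21 (0.122) and without both E15.5 and P0 (0.109). It was also lost on the scale of days (0.103), in the second columns (0.189), by DESeq2 (0.0730) and in the joint linear and quadratic test (0.0830).

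The main collagen VI chains, of microfibrils around many cells, kept to the middle. Col6a1 stood at 32.9, 47.2, 68.5, 83.1, 41.9 and 49.6 CPM, highest at P0 (0.38 ± 0.55, adjusted p = 0.627), and Col6a2 held 15.1 to 26.9 CPM. Col6a1 took 63.7% to 76.97% of the tags of both. Col6a3 had 0 tags at E18.5, which allows up to 0.654 CPM, and at most 3.96 CPM elsewhere. Col23a1, a transmembrane collagen, was among the most abundant and most even members, with 164, 186, 183, 232, 137 and 214 CPM (0.17 ± 0.29, adjusted p = 0.679). Among the remaining genes, Col26a1 ranged from 10.4 to 18.98 CPM and Col16a1 from 2.74 to 8.63. Col22a1, of tissue junctions, ranged from 0.493 to 6.84 CPM. Col17a1, a transmembrane collagen of epithelial junctions, had 28 tags (6.90 CPM) at P6 and at most 6 tags in any other library, and these 4 did not pass.

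Changes between neighbouring stages were counted, with no test, where CPM differed 2-fold and the higher library had 20 tags or more. From P0 to P6, 5 of 28 members were lower (Col4a6, Col5a2, Col9a1, Lama1 and Lamb2), against 7.53% of all genes, and 4 were higher (Col5a3, Col17a1, Col27a1 and Lama4), against 10.1%. From P6 to P21, 6 of 32 were higher (Col1a2, Col4a4, Col7a1, Col8a1, Col8a2 and Col27a1), against 10.1%, and 3 were lower (Col2a1, Col5a2 and Col17a1), against 4.66%. In the step from E13.5 to E15.5, 3 of 28 were higher (Col9a3, Col11a2 and Col20a1), against 5.77%, and 3 lower (Col1a2, Col3a1 and Col15a1), against 3.05%. From E15.5 to E18.5, Col9a3 alone was higher (background 5.35%), and 4 of 28 were lower (Col1a1, Col1a2, Col5a2 and Lama4, background 2.46%). Across birth, from E18.5 to P0, none of 25 members was 2-fold higher or lower, against 2.15% and 5.54% of all genes.

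Genes that make, bind and remove these proteins were read from 4 lists, against a background of 17.0% rising and 13.1% falling among all genes. Of 30 genes of collagen processing, 23 were measured, of which 0 rose, 3 fell and 20 did not pass (median fitted log2 change -0.35), and 0 rose and 5 fell at an unadjusted p under 0.05. Serpinh1, the collagen-specific chaperone HSP47, stood at 404, 265, 180.2, 156, 121 and 54.0 CPM lower at each stage than before (-2.53 ± 0.27, adjusted p = 0.00269). P4hb, the shared subunit of prolyl 4-hydroxylase, went from 338 to 218 CPM (-0.59 ± 0.14, adjusted p = 0.0203), and the third to fall was Loxl2, a lysyl oxidase-like enzyme. Of 22 partners in the basement membrane, 15 were measured, 2 rose, 2 fell and 11 did not pass (median -0.89). Hspg2, perlecan, fell from 49.8 to 10.1 CPM (-2.51 ± 0.36, adjusted p = 0.00455), Npnt, nephronectin, rose from 13.1 to 44.95 CPM (2.38 ± 0.45, adjusted p = 0.0100), and Ltbp3, a latent TGF-beta binding protein, rose from 32.6 to 71.5 CPM (0.95 ± 0.24, adjusted p = 0.0234). Ntn1, netrin 1, also fell.

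Of 29 listed receptors of collagen and laminin, 22 were measured, 3 rose, 4 fell and 15 did not pass (median 0.32), with the same background of 17.0% rising and 13.1% falling. Adgrg1, a collagen III receptor of neural progenitors, fell from 291 to 53.5 CPM (-2.63 ± 0.76, adjusted p = 0.0367), and Itga6, the alpha subunit of laminin-binding integrins, from 69.5 to 11.8 CPM (-2.61 ± 0.38, adjusted p = 0.00473). Sgcb and Dmd, of the dystrophin complex that links to laminin, rose from 23.5 to 79.2 CPM (1.64 ± 0.31, adjusted p = 0.00958) and from 61.1 to 124 CPM (1.41 ± 0.38, adjusted p = 0.0288). The integrin subunit Itgb1 and the collagen receptor Ddr1 also fell, and Cd44 rose. Of 20 genes of matrix degradation and its inhibitors, 14 were measured, 5 rose, 2 fell and 7 did not pass (median 0.16). Mmp14, a membrane-bound collagenase, fell from 47.1 to 5.48 CPM (-3.55 ± 0.81, adjusted p = 0.0176) and Mmp11, stromelysin 3, from 64.1 to 13.4 CPM (-2.04 ± 0.46, adjusted p = 0.0168). Mmp17, a GPI-anchored metalloproteinase, rose from 8.76 to 51.5 CPM (2.40 ± 0.56, adjusted p = 0.0189) and Ctsb, a lysosomal protease, from 306 to 719 CPM (1.09 ± 0.22, adjusted p = 0.0129), and Mmp9, Timp2 and Timp3 rose too. Genes given here by name alone were added after their values were seen.

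Markers of other cell types were summed in the same way. Pigment epithelium markers (8 of 12 measured, Rpe65 and Tyr with no site) summed to 102, 87.6, 56.9, 76.2, 206 and 397 CPM, with Rdh5, Rgr and Ttr rising. From E13.5 to P21, Ttr went from 6.02 to 158 CPM, Rgr from 3.29 to 107 and Rdh5 from 3.83 to 39.7. The other 5 did not pass. Of these, Pmel went from 56.9 to 33.4 CPM, Tyrp1 from 6.84 to 5.48 and Best1 from 3.01 to 2.74. Dct went from 17.2 to 45.5 CPM and Mlana from 4.93 to 5.21. Müller glia markers (14 of 14) summed to 2079 CPM at E13.5, 1969.5 to 2404 CPM from E15.5 to P6 and 3568 CPM at P21. Of these, 6 rose and 2 fell. At E13.5, Dkk3 (592 CPM), Glul (431), Vim (365), Apoe (211) and Hes1 (192) were the highest. Hes1 and Vim fell, Dkk3 and Glul did not pass, and Apoe and Slc14a1 rose. From E13.5 to P21, Rlbp1 went from 46.0 to 592 CPM, Abca8a from 2.74 to 119, Kcnj10 from 1.92 to 56.7 and Clu from 48.5 to 498. Dkk3, Glul, Vim, Apoe, Hes1 and Slc14a1 were named after their values were seen. Astrocyte markers (7 of 8) summed to at most 125 CPM up to P0, 343 CPM at P6 and 438 CPM at P21, with Gfap, S100b and Slc1a2 rising. Slc1a2 alone held 244 CPM at P6 and 272 CPM at P21, most of both sums. The other 4 did not pass. Of these, Gja1 went from 52.0 CPM at E13.5 to 9.59 at P21, while Aldh1l1, Aqp4 and Pdgfra were higher at P21 than at E13.5. Microglial markers (11 of 12, sums of 122 to 239.9 CPM, 0 rising and 0 falling, also at an unadjusted p under 0.05) and surface epithelium markers (6 of 11, sums of 48.5 to 98.95 CPM, Krt18 and Perp rising and Epcam falling, with Krt5, Krt14 and Trp63 having no site) were low. Their part in the rise of Col5a3, Col7a1, Col8a1 and Col20a1 was not tested.

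Poly(A) sites of members mostly carried the canonical signal. Of 59 sites that could be read in annotated transcripts, 69.5% had AATAAA in the last 40 bases, 16.9% had ATTAAA and 13.6% had neither, against 57.8%, 16.7% and 25.5% of 25320 sites of all genes. Searches were on the transcript strand, and AATAAA was taken first where both were present. Col9a1 and Col4a1, with 4 sites each, show how members end. The last 30 bases before each Col9a1 site on chromosome 1 (plus strand) and each Col4a1 site on chromosome 8 (minus strand), from GENCODE M21 transcripts on GRCm38, read 5′ to 3′ as follows, with the signal in capitals.
Col9a1, chr1:24252318-24252347: cattcAATAAAattggtgcttaaaatcttc
Col9a1, chr1:24252464-24252493: tgaaagcaaagaagtaataccctgacacac
Col9a1, chr1:24252554-24252583: caaagaaaaAATAAAcacggtttcctagtc
Col9a1, chr1:24252647-24252676: gagtcATTAAAattttgacttactgctact
Col4a1, chr8:11199631-11199660: aagtgccttatagggattcgcgtaactaac
Col4a1, chr8:11199514-11199543: ctgatccAATAAAagatgaattgcattttg
Col4a1, chr8:11198522-11198551: ttcaaatttgtAATAAAactatttgtataa
Col4a1, chr8:11198429-11198458: ccactAATAAAcctgtaagctttgctgcat
All 8 lie in the 3′ UTR. In both genes the site with neither signal had the fewest tags, 115 of the Col9a1 tags and 187 of the Col4a1 tags over the 6 libraries. The most used Col9a1 site had ATTAAA (2552 tags) and the most used Col4a1 site AATAAA (1047 tags).

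Choice between sites was tested in the 13 members with a pair of sites deep enough (5% or more of the tags of the gene on each, and an average of 20 or more tags per library on both together). None passed at an adjusted p of 0.05 (edgeR, diffSpliceDGE), against 2.21% of the 5894 pairs of all genes, and Col20a1 was the single one under an unadjusted p of 0.05 (0.0315, adjusted 0.248). Among the 6 members with most tags, the distal share, the part of a pair's tags on its 3′-most site in percent, was 88.4% to 94.6% for Col2a1, 87.8% to 97.3% for Col6a1, 62.2% to 70.9% for Col18a1, 48.2% to 61.4% for Col23a1 and 22.7% to 31.8% for Col4a1. For Col9a1, whose paired sites are 93 bases apart, it was 54.7%, 38.4%, 58.5%, 57.2%, 57.7% and 56.2%. The E15.5 library stood 16.3 percentage points below the lowest of the others, at 39.2% and 37.4% in its columns (Wilson interval of their sum 35.0% to 41.9%). Of 3334 pairs of all genes with at least 100 tags in each library, 27 (0.810%) had E15.5 more than 10 points outside the range of the other libraries, and 7 by at least as much as Col9a1. The ATTAAA site shown last for Col9a1 is the distal one and the AATAAA site before it the proximal one.

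Col20a1 and this Col9a1 pattern were singled out after their values were seen. The distal share of Col20a1 was 21.4%, 23.4%, 11.0%, 20.8%, 23.0% and 57.8%, and the P21 columns gave 60.6% and 55.6%. The Wilson interval at P21 (51.2% to 64.0%) lay above those of the other libraries, of which the highest bound was 39.5%. Its distal site is at the annotated gene end, at position 181017540 of chromosome 2 (plus strand), and held 6, 18, 10, 15, 31 and 130 tags. The proximal site lies in an intron at 180987257 to 180987274, 30266 bases upstream, with 22, 59, 81, 57, 104 and 95 tags, so the step from P6 to P21 was at the gene end. Counted from the gene end alone, the fitted log2 change of Col20a1 was 3.83 (adjusted p = 0.0148). The sequence around the intronic site was not analysed here.

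**Figure D4:**
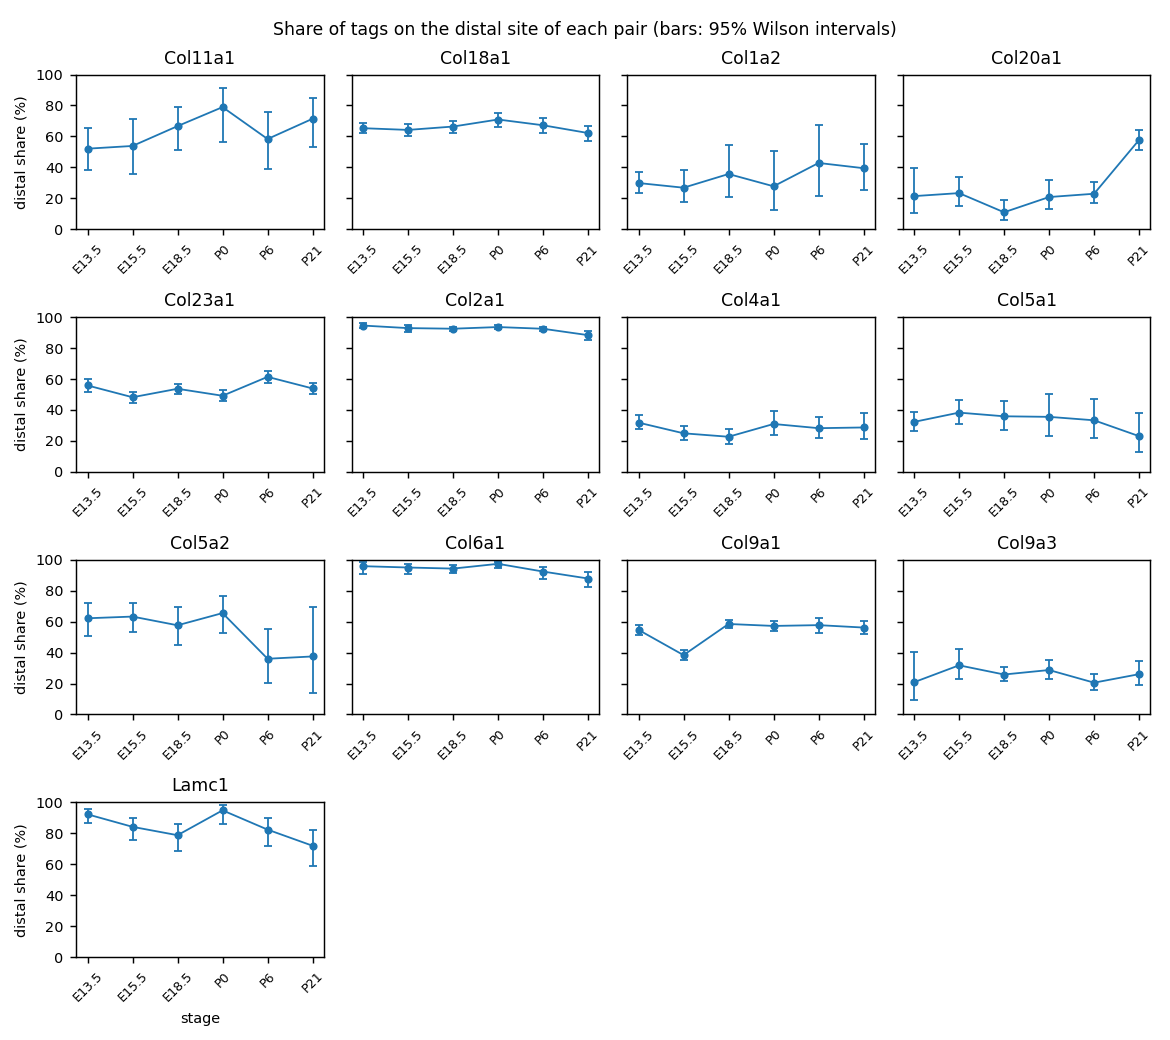
Distal share in percent (vertical axes, 0 to 100) at each stage (horizontal axes) for the 13 members with a tested pair of sites, with 95% Wilson intervals as bars. Col9a1 dips to 38.4% at E15.5, Col20a1 reaches 57.8% at P21, and Col2a1 and Col6a1 stay above 87% in each library.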

How the data were processed

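PA-seq libraries of 6 retina samples, 1 per stage, were used. Per the file headers, the deposited table gives counts of tags per poly(A) site in 12 columns, 2 per stage, and 1 enrichment score per site, which the authors added and which was not used here. The submitters' processing notes name BWA 0.7.5a-r405 as a tool and mm10 as the build. The clustering and filtering of sites are not given in the sources used here.

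Sites were placed by their 3′ edge on GENCODE M21 genes (GRCm38) of the same strand, or within 1000 bases downstream. Tags were summed per gene and tested by the quasi-likelihood F test of edgeR 4.0.16 (R 4.3.3, TMM scaling) on 1 linear term, stage order, over 14398 genes, leaving 4 residual degrees of freedom. Fitted changes are log2 changes from E13.5 to P21, and their SE is the change divided by the square root of F. A call needed a Benjamini-Hochberg adjusted p of at most 0.05. Site pairs were tested with diffSpliceDGE. The code was tested on simulated data. Departures from a line count as spread, and p values measure the spread between these libraries. DESeq2 1.42.0 and other settings were alternatives. A joint test with a quadratic term, and leaving out both E15.5 and P0, were added after seeing the data.

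Intervals (95% Poisson or Wilson) and the floor of 3 tags cover counting error only. Every member past the threshold and the 12 of highest mean CPM are given in full, except 1 that is counted but not reported here. Listed genes are named by the largest change past the threshold at a mean of at least 20 CPM, up to 4 per list, filled to 2 by the highest mean CPM. Members and lists were chosen with earlier results of these data known.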

Additional observations from a re-analysis of the deposited data

How the results depend on the processing

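Among the alternative values of the named members' abundance changes, 324 kept their direction and side of the threshold, 55 lost the call, 3 gained one and 5 changed sign. For site choice, 58 kept them and 10 changed sign, all of members that had not passed. The 8 rising genes became 5 with a filter of 5 CPM, which tests fewer genes, 5 in the second columns and 4 without both E15.5 and P0. Leaving out single libraries gave 2 to 8 rising and 2 to 9 falling genes, and a scale of days after conception gave 4 falling genes. The change of Col2a1 was -0.53 on the scale of days, -0.10 without both libraries and -0.024 to 1.24 without single ones. That of Col6a1 was -0.050 on the scale of days and -0.30 to 0.94 without single libraries. The log2 odds change of the distal site was 0.013 for Col4a1, -0.041 for Col18a1 and 0.16 for Col23a1. Col4a1 turned to -0.036 in the first columns and -0.14 without both E15.5 and P0, and ran from -0.12 to 0.48 without single libraries. Col18a1 turned to 0.0089 in the first columns and ran from -0.11 to 0.35, and Col23a1 from -0.027 to 0.49. The cause was not tested. No paired analysis was possible because each stage has 1 sample. Depth limits genes near the floor of 3 tags, such as Col6a4 and Col8a1.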
